A study of Mus musculus with 3 samples.

Results

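The histone deacetylases described here are 10 genes, Hdac1, Hdac2, Hdac3, Hdac4, Hdac5, Hdac6, Hdac7, Hdac8, Hdac9 and Hdac11, chosen by their symbols out of the 30559 genes of the files. They do not cover every zinc-dependent deacetylase of the mouse. Single-nucleus RNA was read in 3 libraries of neurosphere cultures, which are clonal balls of neural stem cells from the subventricular zone of newborn C57BL/6 mice that were plated and left to differentiate until day 15 in vitro. The control library came from cells infected with a lentivirus for a red fluorescent protein, and the line of mice they came from is not stated. The CBP-ablated library (genotype CBPf/f) and the p300-ablated library (genotype p300f/f) came from cells infected with a lentivirus for Cre fused to mCherry, which removes part of the floxed gene in infected cells. Each library was 1 pool of about 15 cultures, with nuclei sorted by their fluorescence and 16000 loaded. Tamoxifen is named in the labels of every sample, whereas the methods describe lentiviral Cre.

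Histone deacetylases remove acetyl groups from lysines of histones and other proteins, the reverse of the reaction that the acetyltransferases CBP and p300 carry out. Class I enzymes (Hdac1, Hdac2, Hdac3 and Hdac8) act mostly in the nucleus, the first 3 of them inside corepressor complexes, while class IIa enzymes (Hdac4, Hdac5, Hdac7 and Hdac9) have little activity of their own, repress MEF2 factors and leave the nucleus when kinases phosphorylate them. Hdac6 (class IIb) is a cytoplasmic tubulin deacetylase, and Hdac11 (class IV) is known from oligodendrocytes and neurons. In the neural lineages, Hdac1 and Hdac2 are known to be needed for the formation of oligodendrocytes and neurons.

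The libraries held 3017 to 4884 nuclei and 12748336 to 18876682 unique molecular identifiers (UMIs, counts of single RNA molecules), and shared 1 to 7 nucleus barcodes per pair. Clustering without the 10 members gave 12 clusters, of which 10 took a class name from marker genes. The other 2 stayed unnamed: cluster 7, led by Cdkn1a, and cluster 11, in which 92.8% of nuclei were called doublets. The makeup differed strongly between libraries. The astrocyte-like class held 1278 control nuclei (26.2%) and 0 in either ablated library, which allows a share of up to 0.122% after CBP ablation and 0.0793% after p300 ablation (exact binomial interval). The oligodendrocyte-like class made up 3.28% of the control nuclei, 16.1% after CBP ablation and 4.15% after p300 ablation. Summed UMIs of the floxed genes did not check the labels: Crebbp stood at 335, 370 and 365 counts per 1000000 UMIs (CPM), and Ep300 at 114, 136 and 115 CPM, in the control, CBP-ablated and p300-ablated library, in that order, which is used throughout. Each condition had 1 library, so that no replicates existed and conditions were compared without a test. Intervals are 95% intervals of counting error and do not cover the variation between cultures.

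All 10 members were detected in every library, with 95 UMIs or more. Together they made up 1160 CPM in control, 909 CPM after CBP ablation and 1119 CPM after p300 ablation. Hdac4, Hdac8 and Hdac9 supplied 82.3%, 75.0% and 79.7% of these UMIs. These 3 are also the longest members, and introns were counted, so levels of different genes were compared per kb of gene from start to end. On that scale Hdac8 led with 2.13 ± 0.37 CPM per kb (SD over the 3 libraries). Hdac1 at 1.99 ± 0.13 and Hdac2 at 1.94 ± 0.093 CPM per kb lay within its range over libraries. Hdac3 followed at 1.25 ± 0.12 CPM per kb and Hdac6 at 1.01 ± 0.19 CPM per kb. The 4 class IIa genes and Hdac11 lay lower, from 0.760 ± 0.11 CPM per kb for Hdac7 to 0.254 ± 0.064 for Hdac9, the longest member with 869.5 kb. Per kb of exon Hdac9 moved from place 10 to place 3 (15.1 ± 3.8 CPM per kb of exon), while Hdac8 stayed in place 1 and Hdac1 in place 2. Hdac8 then stood at 97.2 ± 17.1 and Hdac1 at 15.4 ± 1.04 CPM per kb of exon. The other 8 members all changed place. The order below Hdac1 and the distance between Hdac8 and Hdac1 thus rest on the length used.

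Hdac9 spans chr12:34047580-34917095, Hdac4 chr1:91928779-92195699 and Hdac8 chrX:102284639-102505359, all 3 on the minus strand of GRCm38 (GENCODE M21). Hdac6 spans chrX:7930120-7947889 on the minus strand. No member overlapped another gene of the files on its own strand. Hdac7 overlapped Slc48a1 and Hdac11 overlapped Gm14573 on the opposite strand. RefSeq promoter sequences (GRCm38.p6) were at hand for 8 of the 10 members, with 12 starts in all. The 250 bases before 4 of these starts are printed here because Hdac9 and Hdac6 each passed the fold used below in an ablated library, as Hdac8 and Hdac11 did, whose windows overlap annotated exons and are not printed, and because the Hdac4 window holds the CRE half-site, the sequence bound by CREB, a partner of CBP. Capitals mark any match, on either strand, to 4 motifs: the CRE half-site TGACG, the GC box GGGCGG, the CCAAT box CCAAT and the TATA box TATAAA.
Hdac9, upstream start, chr12:34917096-34917345, minus strand: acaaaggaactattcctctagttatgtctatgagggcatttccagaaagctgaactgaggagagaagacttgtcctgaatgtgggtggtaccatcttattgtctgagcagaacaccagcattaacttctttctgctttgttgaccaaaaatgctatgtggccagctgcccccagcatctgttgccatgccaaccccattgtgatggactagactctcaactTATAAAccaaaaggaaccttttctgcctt
Hdac9, internal start, chr12:34528890-34529139, minus strand: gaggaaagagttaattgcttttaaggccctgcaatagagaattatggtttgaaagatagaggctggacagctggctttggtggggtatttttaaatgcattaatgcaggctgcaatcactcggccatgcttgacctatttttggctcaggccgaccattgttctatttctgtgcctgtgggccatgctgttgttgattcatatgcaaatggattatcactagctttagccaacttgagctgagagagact
Hdac6, chrX:7947890-7948139, minus strand: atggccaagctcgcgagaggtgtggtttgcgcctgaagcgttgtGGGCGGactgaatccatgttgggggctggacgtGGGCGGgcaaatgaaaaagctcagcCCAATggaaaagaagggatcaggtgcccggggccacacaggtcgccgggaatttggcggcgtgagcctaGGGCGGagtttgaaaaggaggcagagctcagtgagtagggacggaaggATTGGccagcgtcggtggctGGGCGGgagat
Hdac4, chr1:92180342-92180591, minus strand: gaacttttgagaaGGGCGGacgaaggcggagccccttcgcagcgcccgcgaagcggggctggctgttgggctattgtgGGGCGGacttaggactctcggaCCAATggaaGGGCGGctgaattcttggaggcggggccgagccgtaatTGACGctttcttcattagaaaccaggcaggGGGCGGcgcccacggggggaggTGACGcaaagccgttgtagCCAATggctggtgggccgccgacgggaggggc
The upstream Hdac9 window held 1 TATA box, 29 bases before the start, and no other match, and the internal Hdac9 window held none. Both Hdac9 windows are poor in G and C, with 44.4% and 43.6% G or C and 0 and 2 CpG, against a median of 52.4% and 6 CpG over the 32851 windows of the table. The Hdac6 window held 4 GC boxes and 2 CCAAT boxes in 61.2% G or C. The Hdac4 window held 2 CRE half-sites, 103 and 51 bases before the start, with 4 GC boxes and 2 CCAAT boxes. This Hdac4 start, at 92180341, is internal, since the annotated span of the gene begins upstream at 92195699. The Hdac11 window also held a CRE half-site, 109 bases before the start, with 1 GC box and 1 CCAAT box. No other of the 12 member windows held a CRE half-site. Of all windows, 17.8% held a CRE half-site, 32.7% a GC box, 33.8% a CCAAT box and 12.4% a TATA box. These are matches of letters, and binding was not measured.

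Among the class I genes, Hdac1 was the most even and Hdac8 the most patterned across the named classes. Mean Hdac1 levels over the 3 libraries ran from 44.1 ± 11.5 CPM (SD, n = 3 libraries) in oligodendrocyte-like to 63.9 ± 10.1 CPM in committed OPC-like nuclei (OPC, oligodendrocyte precursor cell), and each class overlapped its neighbour in the order. Hdac2, the close paralog of Hdac1, was highest in proliferating-like nuclei (77.3 ± 9.37 CPM), immature neuron-like nuclei (75.6 ± 16.9 CPM) and neuron-like nuclei (69.6 ± 4.80 CPM). It was lower in every library in oligodendrocyte-like nuclei (32.2 ± 2.88 CPM), and lowest in microglia-like nuclei at 23.8 ± 4.48 CPM, which rests on 12 UMIs. The ranges over libraries did not overlap between committed OPC-like nuclei, at 56.5 to 70.9 CPM of Hdac2, and nuclei of the radial glia class (RGC/PSC-like), at 35.4 to 50.6 CPM. Hdac3, the catalytic subunit of the NCoR/SMRT complex, had its highest mean in the glial progenitor class (GPC-like). It was 31.7 ± 0.73 CPM, just above the astrocyte-like nuclei of the control library (28.3 CPM). The range of Hdac3 in proliferating-like nuclei (20.7 to 34.9 CPM) held that of GPC-like nuclei (30.9 to 32.3 CPM).

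Hdac8, a class I enzyme known for deacetylating the cohesin subunit SMC3, was highest in glial progenitor and astrocyte-like nuclei. In GPC-like nuclei it stood at 907 CPM in control, 906 CPM after CBP ablation and 961 CPM after p300 ablation. The astrocyte-like nuclei of the control library had 925 CPM (895 to 956 CPM), which lies inside that range. Immature neuron-like nuclei followed at 551 ± 138 CPM and RGC/PSC-like nuclei at 454 ± 19.3 CPM. The lowest level was 234 ± 10.5 CPM in committed OPC-like nuclei, where the 3 libraries read 232, 245 and 224 CPM. The ranges of GPC-like and committed OPC-like nuclei lay 3.95-fold apart in their means and did not overlap. Neuron-like (246 ± 34.0 CPM) and oligodendrocyte-like nuclei (247 ± 29.6 CPM) lay next to the lowest and did not differ from it beyond their ranges.

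**Figure D1:**
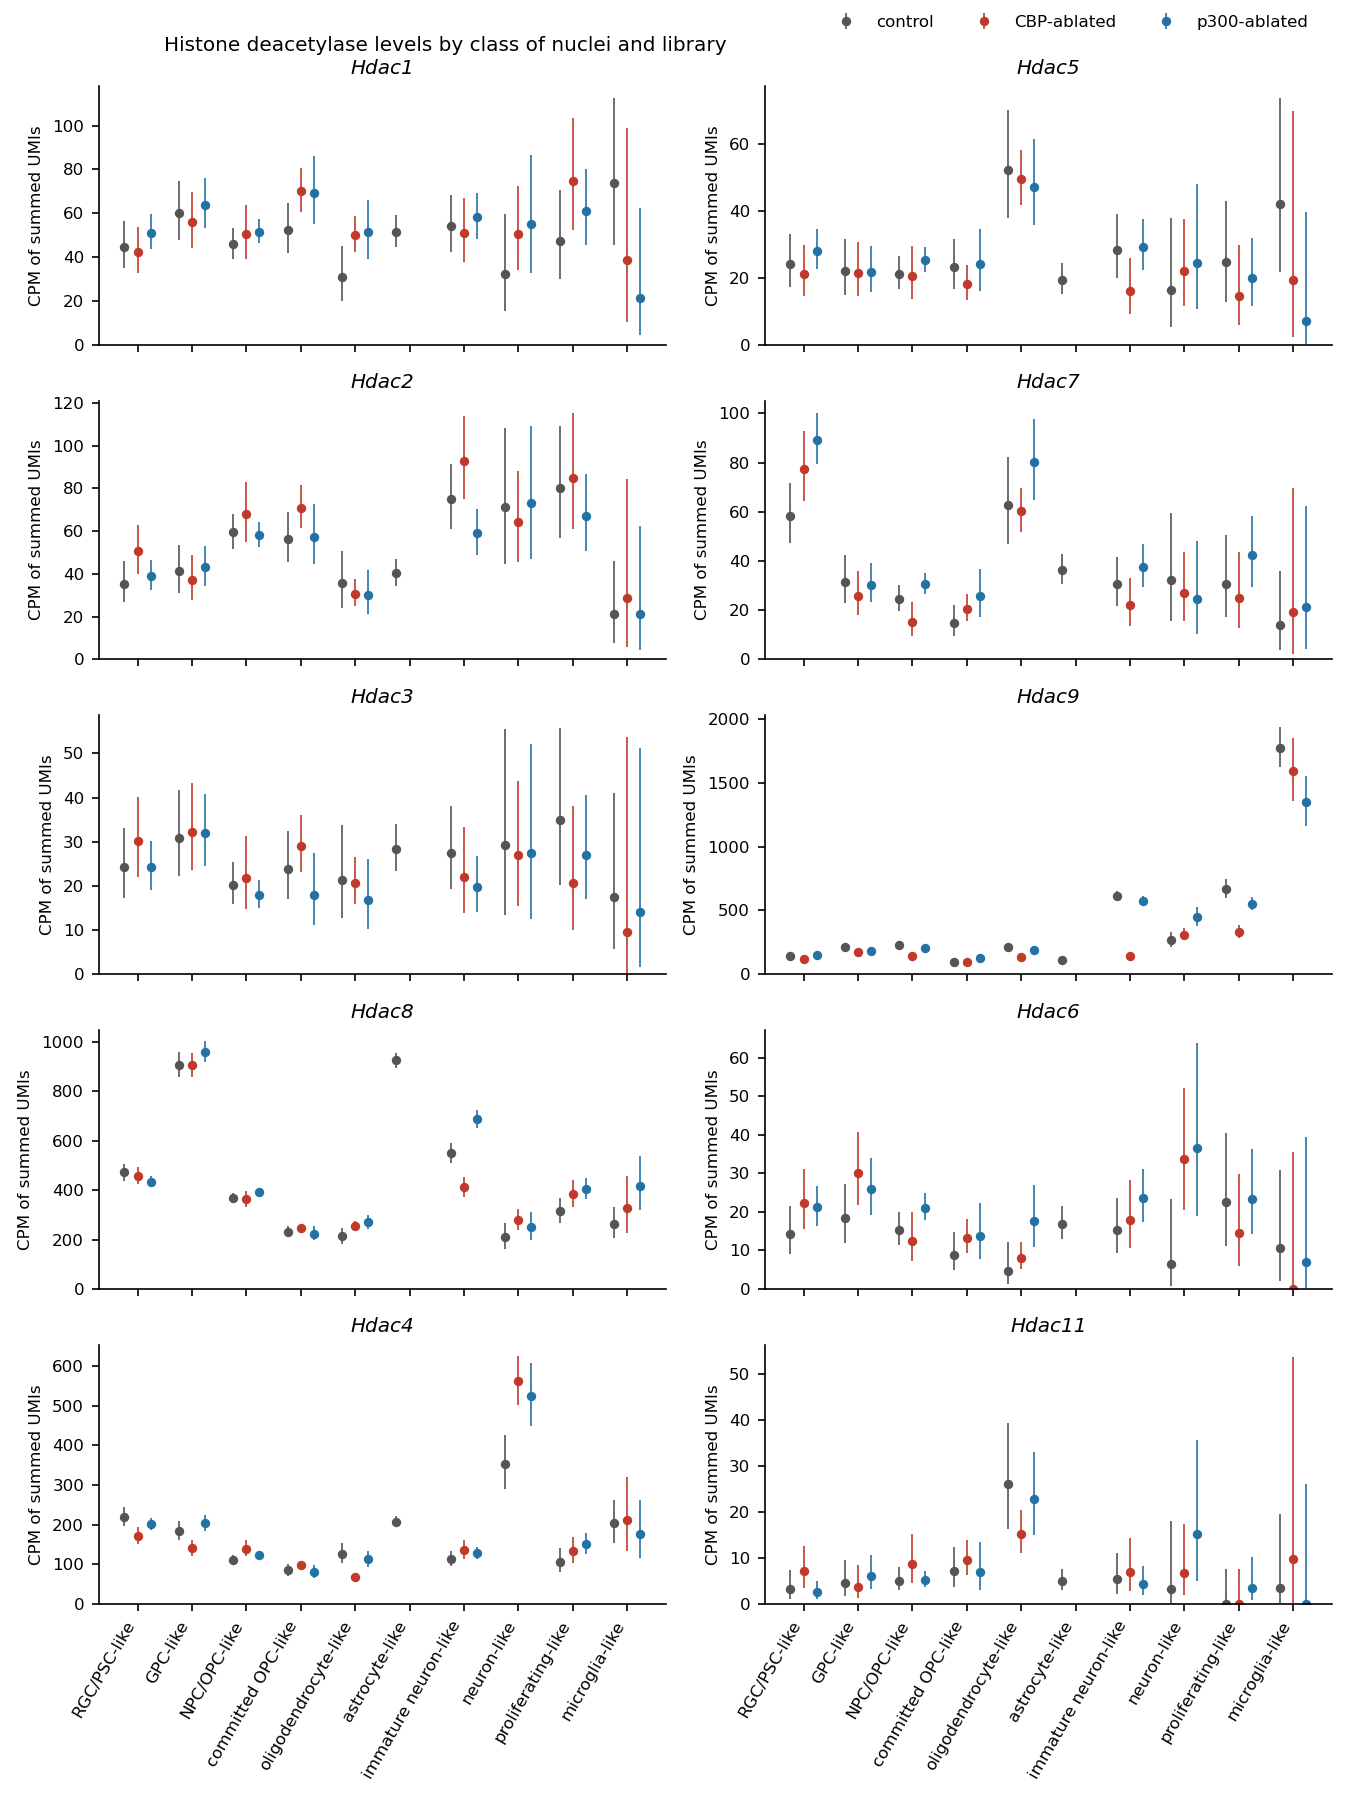
Level of each of the 10 members (y axis, CPM of the UMIs summed over a class in a library) in 10 named classes of nuclei (x axis). Points are libraries (control gray, CBP-ablated red, p300-ablated blue) and bars are exact Poisson 95% intervals. Hdac8 stands near 925 CPM in GPC-like and astrocyte-like nuclei, Hdac9 near 1572 CPM in microglia-like nuclei, and Hdac4 highest in neuron-like nuclei.

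The class IIa genes differed in the classes where they were highest. Hdac4, known for roles in neurons, read 354, 562 and 525 CPM in neuron-like nuclei, and all 3 values lay above every other class. Astrocyte-like nuclei, present in control only, had 207 CPM, beside 220 CPM in the RGC/PSC-like nuclei of the same library, and the lowest mean level was that of the committed OPC-like nuclei at 86.9 ± 8.81 CPM. Hdac5 read 52.1, 49.4 and 47.2 CPM in oligodendrocyte-like nuclei and did not pass 29.3 CPM in any library in the class next in order, the immature neuron-like nuclei. The remaining named classes lay between 19.4 and 24.5 CPM of Hdac5 in their means, each overlapping its neighbour in the order. Among them, the microglia-like nuclei of the control library read 42.1 CPM from 12 UMIs, with an interval (21.8 to 73.6 CPM) that holds the oligodendrocyte-like values. Hdac7, best known from the vascular endothelium and thymus, was highest in RGC/PSC-like nuclei (58.4, 77.5 and 89.3 CPM) and oligodendrocyte-like nuclei (62.8, 60.2 and 80.1 CPM). These 2 classes overlapped each other and no other named class. The unnamed cluster 7 read 52.5, 64.1 and 52.5 CPM of Hdac7 and overlapped both. Hdac7 was low in committed OPC-like nuclei at 20.4 ± 5.42 CPM, the class that comes before oligodendrocyte-like nuclei in the lineage.

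Hdac9 had the widest range of the members with more than 1000 UMIs. In microglia-like nuclei it read 1776, 1591 and 1349 CPM, above all other classes in every library. These nuclei carried few UMIs (a median of 1010 to 1664 per nucleus). Proliferating-like nuclei came next with 672, 334 and 551 CPM. Immature neuron-like nuclei had 612, 143 and 578 CPM and neuron-like nuclei 266, 311 and 449 CPM, and these 3 classes overlapped. Committed OPC-like nuclei had the lowest mean level, 107 ± 19.1 CPM, which was 14.7-fold below that of microglia-like nuclei. Oligodendrocyte-like nuclei, the later stage, had 179 ± 38.8 CPM of Hdac9, and their range (136 to 212 CPM) lay above the range of committed OPC-like nuclei (96.0 to 129 CPM).

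Hdac6 and Hdac11 gave few UMIs in most classes. Hdac6 means ran from 5.87 ± 5.37 CPM in microglia-like nuclei (4 UMIs) to 25.6 ± 16.6 CPM in neuron-like nuclei (34 UMIs), and every class overlapped its neighbour. Hdac11 was highest in oligodendrocyte-like nuclei, with 26.1, 15.2 and 22.8 CPM from 94 UMIs. Committed OPC-like nuclei, the earlier stage, had 7.85 ± 1.49 CPM of Hdac11, and their highest library (9.57 CPM) lay below the lowest oligodendrocyte-like library. Neuron-like nuclei overlapped both with 8.42 ± 6.18 CPM from 10 UMIs. In proliferating-like nuclei Hdac11 had 0 UMIs in 2 libraries and 3 in the p300-ablated one.

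The class patterns of the members were compared with those of 8521 genes, as Pearson correlations of log2(CPM + 1) over 34 class and library units, which share libraries and depth and are a description only. Nearest to Hdac8 were Rfx4 (r = 0.87), Glud1 (r = 0.86) and Rorb (r = 0.86), of which Rorb was also on the list of astrocyte markers. Those nearest to Hdac9 were Dock2 (r = 0.86), Sh3pxd2a (r = 0.84) and Tank (r = 0.83). For Hdac4 they were Celf2 (r = 0.81), Marchf3 (r = 0.80) and Epha6 (r = 0.79), and for Hdac7 Jcad (r = 0.86), Naaladl2 (r = 0.82) and Myo18a (r = 0.81). Nearest to Hdac2 were Uxs1 (r = 0.86), Lmo3 (r = 0.85) and Zfp821 (r = 0.85). For the members of few UMIs, the nearest to Hdac11 were Heatr3, the myelin gene Mog and Abca2 (r = 0.67 each), to Hdac5 Atp11a, Csrp1 and Sbf1 (r = 0.71 to 0.72), to Hdac3 Hdhd5, Mrpl47 and Tpd52l1 (r = 0.72 to 0.76), and to Hdac6 Zfp369, Cc2d2a and Prpf40b (r = 0.81 to 0.82). Hdac1, which differed by less than 2 times between classes, was left out. No pair of members was more alike than Hdac5 and Hdac11 (r = 0.51).

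The comparison of the CBP-ablated library with the control library asks which deacetylases stood at another level after the loss of CBP. A member was counted as past the fold when its log2 ratio was over 0.5 or under -0.5. Hdac8 and Hdac9 lay under it, and Hdac11 lay over it. Hdac9 read 245 CPM in control, 157 CPM after CBP ablation and 261 CPM after p300 ablation, so that the CBP-ablated library stood apart from the other two, with a log2 ratio to control of -0.64 (-0.72 to -0.56). Hdac8 read 549.8, 385 and 476 CPM, with a log2 ratio of -0.51 (-0.56 to -0.46) in the CBP-ablated library. Hdac11 read 5.82, 9.02 and 5.88 CPM, a log2 ratio of 0.63 (0.23 to 1.04) from 95 and 115 UMIs. These are 2 of 10 members under the fold, where 12.2% of the 11883 genes with at least 100 UMIs were, and 1 over it, where 10.6% were. The remaining 7 members had log2 ratios between -0.20 (Hdac4) and 0.18 (Hdac1). The median over the 10 members was 0.13, beside 0.06 over all genes.

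Sums over a library mix the makeup of its nuclei with the level in each class. The members past the fold differed in this respect. Of the Hdac8 UMIs of the control library, 40.5% came from the astrocyte-like nuclei that neither ablated library held. Without that class the control library had 431 CPM of Hdac8, and the log2 ratios were -0.16 (-0.22 to -0.11) after CBP ablation and 0.14 (0.094 to 0.19) after p300 ablation. An average over 11 classes and clusters weighted by the control nuclei (fixed class shares) gave Hdac8 a log2 ratio of -0.05 (-0.11 to 0.02) in the CBP-ablated library. Hdac9 was lower in astrocyte-like nuclei than in most classes, and without them its log2 ratio was -0.87 (-0.95 to -0.79). With fixed class shares it was -0.59 (-0.70 to -0.48). Of the Hdac11 UMIs of the CBP-ablated library, 39.1% came from oligodendrocyte-like nuclei, beside 23.2% in control. Hdac11 at fixed class shares had a log2 ratio of 0.52 with an interval that holds 0 (-0.01 to 1.05). Thus 1 of 10 members at fixed class shares was under the fold, where 6.35% of all genes were, and 1 over it, where 6.55% were, and the median was 0.02 beside 0.09 over all genes. The Hdac9 value at fixed class shares fell inside the fold at a finer clustering (-0.40, from -0.52 to -0.29), with the members kept among the variable genes (-0.36, from -0.48 to -0.24) and without the immature neuron-like class (-0.38, from -0.50 to -0.26). In the first 2 of these Hdac6 was over the fold (0.62 and 0.63).

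**Figure D2:**
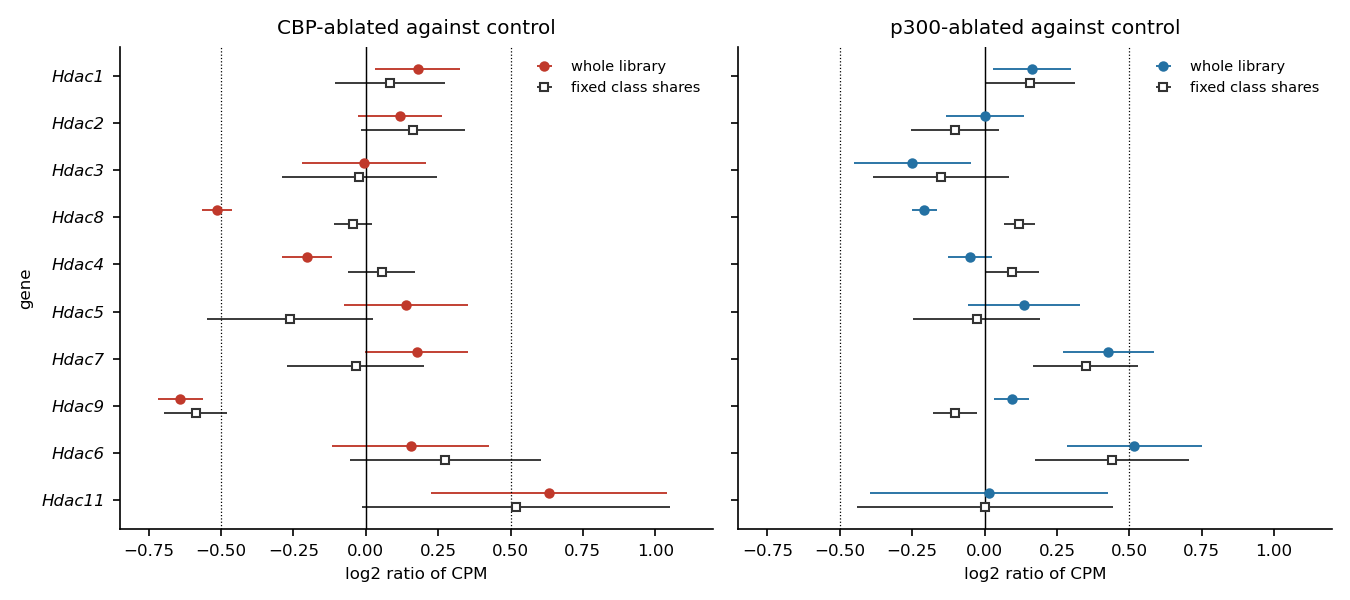
Log2 ratio of each member (rows) in the CBP-ablated (left) and the p300-ablated library (right) against the same control library (x axis). Filled circles are whole libraries, open squares are ratios at fixed class shares, bars are 95% intervals of counting error and dotted lines stand at -0.5 and 0.5. Hdac8 moves from -0.51 to -0.05 in the left panel while Hdac9 stays under -0.5 at both.

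**Figure D3:**
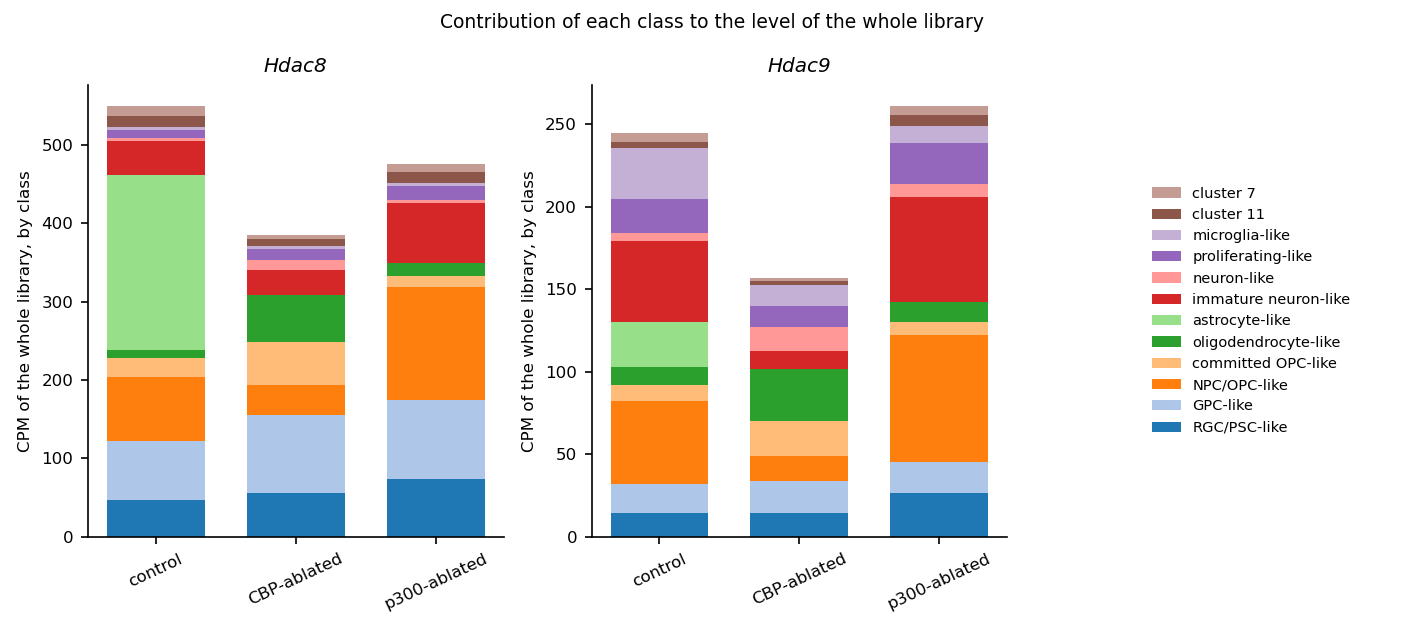
Contribution of each class of nuclei (colors) to the CPM of Hdac8 (left) and Hdac9 (right) in the whole library (y axis, CPM), for the 3 libraries (x axis). The astrocyte-like class gives 222 of the 549.8 CPM of Hdac8 in control and 0 in both ablated libraries. For Hdac9 the contributions that fall most in the CBP-ablated library are those of the NPC/OPC-like (50.3 to 15.2 CPM) and immature neuron-like (49.1 to 11.2 CPM) nuclei. The astrocyte-like contribution to Hdac9 goes from 27.1 to 0 CPM.

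The comparison of the p300-ablated library with the same control library asks the same of p300. Hdac6, the tubulin deacetylase, was the only member past the fold. It read 15.1, 16.9 and 21.7 CPM, with a log2 ratio of 0.52 (0.29 to 0.75) in the p300-ablated library, the highest of the 3. Thus 1 of 10 members was over the fold, where 6.01% of 12247 genes were, and 0 were under it, where 10.3% were. Hdac7 came next with 34.0, 38.4 and 45.8 CPM and a log2 ratio of 0.43 (0.27 to 0.58). Hdac3 read 25.4, 25.3 and 21.4 CPM, a log2 ratio of -0.25 (-0.45 to -0.05). The median over the members was 0.05, beside -0.03 over all genes. Hdac3 at fixed class shares had -0.15, with an interval that holds 0 (-0.38 to 0.085). With class shares fixed, 0 of 10 members were past the fold, beside 3.64% of all genes over and 4.93% under it, and Hdac6 had 0.44 (0.17 to 0.71), Hdac7 0.35 (0.17 to 0.53) and Hdac8 0.12 (0.067 to 0.17). For Hdac8 this is the opposite sign of its whole-library ratio of -0.21 (-0.25 to -0.17), and Hdac9 likewise turned from 0.09 (0.033 to 0.15) to -0.10 (-0.18 to -0.03). Hdac6 passed the fold there with classes by marker score (0.56) and without clusters 7 and 11 (0.57). Hdac6 and Hdac8 lie on chromosome X, and Xist, the RNA of the inactive X chromosome, stood at 1079, 1694 and 1012 CPM. Its part in their values was not tested.

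Set directly against each other, with no control library in the comparison, the CBP-ablated and p300-ablated libraries differed most in Hdac9 and Hdac11. Hdac9 was lower in the CBP-ablated library by a log2 ratio of -0.73 (-0.81 to -0.66) and Hdac11 higher by 0.62 (0.23 to 1.01). These are 1 of 10 members under the fold, where 10.0% of 11956 genes were, and 1 over it, where 11.2% were. Hdac6 (-0.36, from -0.61 to -0.12), Hdac8 (-0.31, from -0.36 to -0.26) and Hdac7 (-0.25, from -0.41 to -0.09) were also lower in the CBP-ablated library, inside the fold. At fixed class shares Hdac9 had -0.49 (-0.60 to -0.37), Hdac7 -0.38 (-0.60 to -0.17), Hdac8 -0.17 (-0.23 to -0.10), Hdac2 0.27 (0.091 to 0.44) and Hdac11 0.52 (0.016 to 1.02). Hdac6 had -0.16 there, with an interval that holds 0 (-0.46 to 0.13).

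Within single classes, Hdac9 was the member whose intervals against control left out 0 most often, counting both ablated libraries. This ranking depends on depth, since intervals narrow with more UMIs. The share of all genes whose intervals left out 0 was not counted. Hdac9 had 2000 to 4926 UMIs per library, beside 323 to 415 for Hdac3 and 339 to 501 for Hdac5. Against control, the Hdac9 interval in the CBP-ablated library lay below 0 in 5 of 11 classes and clusters and above 0 in none, with the remaining 6 holding 0. In NPC/OPC-like nuclei (neural and oligodendrocyte progenitors) it read 228, 142 and 209 CPM, a log2 ratio of -0.69 (-0.92 to -0.46). At a finer clustering, described below, 946 nuclei of this class shared a cluster with 456 immature neuron-like nuclei. The part of makeup within the class in this ratio was not tested. In proliferating-like nuclei the ratio was -1.01 (-1.29 to -0.73), in oligodendrocyte-like nuclei -0.64 (-0.89 to -0.37) and in GPC-like nuclei -0.29 (-0.55 to -0.04). Over 8 other settings, the ratio ran from -1.09 to -0.67 in NPC/OPC-like and from -1.34 to -0.96 in proliferating-like nuclei. It ran from -0.64 to -0.54 in oligodendrocyte-like and from -0.50 to -0.17 in GPC-like nuclei. Those of the 8 settings that only left out other classes could not change these values. Committed OPC-like nuclei gave 96.3 and 96.0 CPM of Hdac9 in control and CBP-ablated, and microglia-like nuclei 1776 and 1591 CPM, with intervals of the ratio that hold 0. Against the p300-ablated library, Hdac9 in the CBP-ablated library was below 0 in 9 of the 11 and above in none. In the p300-ablated library against control it was above 0 in 4, among them neuron-like (0.75, from 0.35 to 1.16) and committed OPC-like nuclei (0.43, from 0.096 to 0.75), and below in 2, proliferating-like (-0.29) and microglia-like nuclei (-0.40).

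The lowest ratio of Hdac9 lay in the immature neuron-like class, and it turned on which nuclei that class held. Over the whole class Hdac9 read 612 CPM in control, 143 CPM after CBP ablation and 578 CPM after p300 ablation, a log2 ratio of -2.10 (-2.37 to -1.84) in the CBP-ablated library, place 31 from the lowest of 3757 genes. Hdac9 was the only 1 of 5 members tested there that lay under the fold, where 11.8% of those genes were, and 0 were over it, where 17.7% were. In the p300-ablated library 0 of 6 members tested in the class were past it, where 6.01% of 4674 genes were over and 4.94% under. The class was named from Kcnj6, Nell2 and Cacng4, and in the CBP-ablated library its Kcnj6 level was 19.9 CPM, beside 258 and 264 CPM in the other two, while Pdgfra, a marker of oligodendrocyte precursors, was at 774 CPM beside 424 and 545 CPM. At a finer clustering the class came apart in a part with Gpr149 and Ets1 among its leading genes, in a cluster that also took 946 NPC/OPC-like nuclei and was named as such, and a part led by Kcnj6, Disp3 and Unc5d. The Gpr149-led part held 36.5% of the nuclei of the class in control, 91.9% after CBP ablation and 8.54% after p300 ablation.

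In the Gpr149-led part Hdac9 read 357 CPM in control (138 nuclei), 93.2 CPM in the CBP-ablated (274 nuclei) and 126 CPM in the p300-ablated library (44 nuclei), so that both ablated libraries lay below control. The log2 ratios were -1.94 (-2.34 to -1.54) and -1.50 (-2.29 to -0.79). The markers of this part differed between libraries too, with Kcnj6 at 89.2, 2.19 and 161 CPM and Pdgfra at 451, 809 and 639 CPM. In the Kcnj6-led part Hdac9 read 739, 664 and 616 CPM, from 234, 22 and 462 nuclei. There the CBP-ablated ratio was -0.15 (-0.58 to 0.24), which holds 0. The p300-ablated ratio was -0.26 (-0.40 to -0.12), which leaves out 0. With the members kept among the variable genes of the clustering, which brings Hdac9 itself into the definition of the classes, the ratio of the immature neuron-like class was -0.09 in the CBP-ablated library. The level of Hdac9 in the immature neuron-like class of the CBP-ablated library and its makeup cannot be told apart, for the whole class or for its Gpr149-led part.

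**Figure D4:**
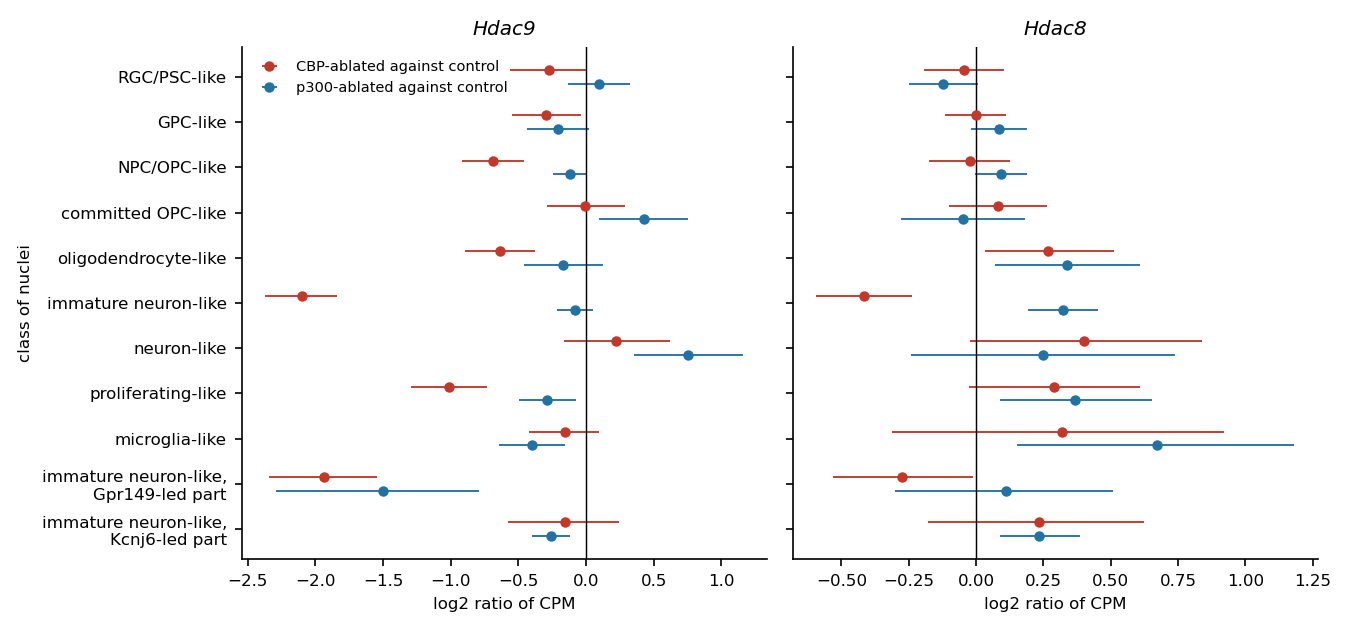
Log2 ratio of Hdac9 (left) and Hdac8 (right) in each class of nuclei (rows) for the CBP-ablated (red) and p300-ablated library (blue) against control (x axis, each panel with its own range), with 95% intervals of counting error; the last 2 rows are the parts of the immature neuron-like class at the finer clustering. Hdac9 in CBP-ablated nuclei is at -2.10 in the whole immature neuron-like class, -1.94 in its Gpr149-led and -0.15 in its Kcnj6-led part.

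The intervals read within classes were many, from 10 members, 11 classes and clusters and 2 ablated libraries, so some can leave out 0 by counting error alone. The share of all genes whose intervals left out 0 was not counted, and nothing particular to the members can be read from them. In each class, both ablated libraries are set against the same control nuclei. Hdac4 also differed within classes, and in both directions. In the CBP-ablated library its interval against control lay above 0 in 2 of 11 classes and clusters and below 0 in 3. Hdac4 in neuron-like nuclei was higher in both ablated libraries, by 0.67 (0.35 to 0.99) after CBP ablation and 0.57 (0.22 to 0.93) after p300 ablation. Both ratios use the same 101 control nuclei, with 109 UMIs of Hdac4, so the second does not stand apart from the first. The makeup of the neuron-like nuclei in each library was not examined. In oligodendrocyte-like nuclei Hdac4 read 127, 67.3 and 112 CPM, a log2 ratio of -0.91 (-1.26 to -0.56) in the CBP-ablated library. The CBP-ablated ratio of Hdac4 was also below 0 in RGC/PSC-like (-0.36, from -0.60 to -0.13) and GPC-like nuclei (-0.39, from -0.66 to -0.11), and above 0 in NPC/OPC-like nuclei (0.33, from 0.070 to 0.58). In the p300-ablated library Hdac4 was above control in proliferating-like nuclei as well (0.51, from 0.031 to 1.00). Hdac7 in RGC/PSC-like nuclei, where it is highest, was above control by 0.61 (0.27 to 0.96) in the p300-ablated and 0.41 (0.007 to 0.81) in the CBP-ablated library. Hdac8 had intervals that left out 0 in 3 of 11 after CBP ablation (1 above, 2 below) and in 4 of 11 after p300 ablation (all above). In GPC-like nuclei, where Hdac8 is high, its intervals held 0 in both ablated libraries, with log2 ratios of -0.00 (-0.12 to 0.11) and 0.08 (-0.02 to 0.19). In immature neuron-like nuclei Hdac8 read 550.4, 413 and 688 CPM, with log2 ratios of -0.41 (-0.59 to -0.24) and 0.32 (0.19 to 0.45), and in the Kcnj6-led part of the class the CBP-ablated ratio was 0.23 with an interval that holds 0 (-0.18 to 0.62). Hdac1 in oligodendrocyte-like nuclei was higher in both ablated libraries, by 0.70 (0.093 to 1.36) and 0.74 (0.055 to 1.46), against 26 control UMIs. The Hdac6 interval lay above 0 in 3 of 11 after p300 ablation, among them NPC/OPC-like nuclei with 0.47 (0.0099 to 0.94). In oligodendrocyte-like nuclei Hdac6 read 4.74 CPM in control and 17.7 CPM in the p300-ablated library, from 4 and 21 UMIs. In neuron-like nuclei Hdac6 had 2 UMIs in control, 20 after CBP ablation and 12 after p300 ablation, with log2 ratios of 2.38 (0.34 to 5.52) and 2.50 (0.33 to 5.70). Hdac2 was above control in RGC/PSC-like nuclei of the CBP-ablated library by 0.51 (0.0047 to 1.03), and no other interval of Hdac2 against control left out 0. The intervals of Hdac3, Hdac5 and Hdac11 held 0 in all 11 classes and clusters against control, in both ablated libraries.

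Deacetylases act with partners, and lists of 66 such genes, 65 of them in the files, were read beside the members. They cover the sirtuins (deacetylases that use NAD), the SIN3, NuRD, CoREST, NCoR/SMRT and MiDAC complexes, and the MEF2 factors, kinases and adaptor proteins of the class IIa enzymes. In the CBP-ablated library 7 of the 63 tested were over the fold, where 10.6% of all genes were, and 5 under it, where 12.2% were, with a median of 0.13 beside 0.06 over all genes. At fixed class shares 2 were over the fold, beside 6.55% of all genes, and 3 under it, beside 6.35%. Ywhaq, an adaptor protein that holds phosphorylated class IIa enzymes in the cytoplasm, read 71.2 CPM in control and 153 CPM in the CBP-ablated library (log2 ratio 1.10). Sirt2, a cytoplasmic sirtuin and one of the markers of committed OPCs, read 185 and 356 CPM (0.94), and Sirt6 3.86 and 6.12 CPM (0.66). At fixed class shares Ywhaq was at 0.31, Sirt2 at 0.13 and Sirt6 at 1.11 (0.49 to 1.72), from 63 and 78 UMIs. The lowest were Prkd1, a kinase of class IIa enzymes (327 and 152 CPM, -1.11), the NuRD helicase Chd5 (17.0 and 9.10 CPM, -0.91) and the class IIa target Mef2c (76.6 and 41.7 CPM, -0.88), which stayed under the fold at fixed class shares with -0.58, -0.84 and -0.67.

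In the p300-ablated library 0 of 64 tested partner genes were over the fold, where 6.01% of all genes were, and 3 under it, where 10.3% were, with a median of -0.02 beside -0.03 over all genes. With class shares fixed, 1 was over the fold, beside 3.64% of all genes, and 3 under it, beside 4.93%. The 1 over it was Sirt6 (0.69, from 0.10 to 1.27), from 63 control and 89 p300-ablated UMIs. Mef2b read 17.3 CPM in control and 8.69 CPM in the p300-ablated library, the lowest ratio of the lists, followed by Mef2c (-0.69) and the mitochondrial Sirt3 (-0.68). At fixed class shares Mef2b was at -0.80, Mef2c at -0.25 and Sirt3 at -0.21 with an interval that holds 0. The highest were Sirt1 (0.40), the NuRD helicase Chd3 (0.40) and the kinase Prkd2 (0.39). Mef2c, Sirt3 and Mef2b, the 3 under the fold in the whole p300-ablated library, were also lower than control in the CBP-ablated library (-0.88, -0.86 and -0.35). The 2 ablated libraries share that control. At fixed class shares the CBP-ablated ratio was -0.67 for Mef2c. It was -0.22 for Sirt3 and -0.29 for Mef2b, with intervals that hold 0. In the CBP-ablated library, where 10.6% of all genes were over the fold and 12.2% under it, 2 of 7 sirtuins were over the fold and 1 under it, 2 of 13 SIN3 genes over it and 0 under it, and 1 of 10 NuRD genes on each side. Of the 17 class IIa partners and kinases, 2 were over it and 3 under it. The CoREST (9 tested), NCoR/SMRT (5 tested) and MiDAC (2 tested) genes had none past the fold in either ablated library as a whole, and their medians lay between 0.07 and 0.16 after CBP ablation and between -0.06 and 0.07 after p300 ablation.

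**Figure D5:**
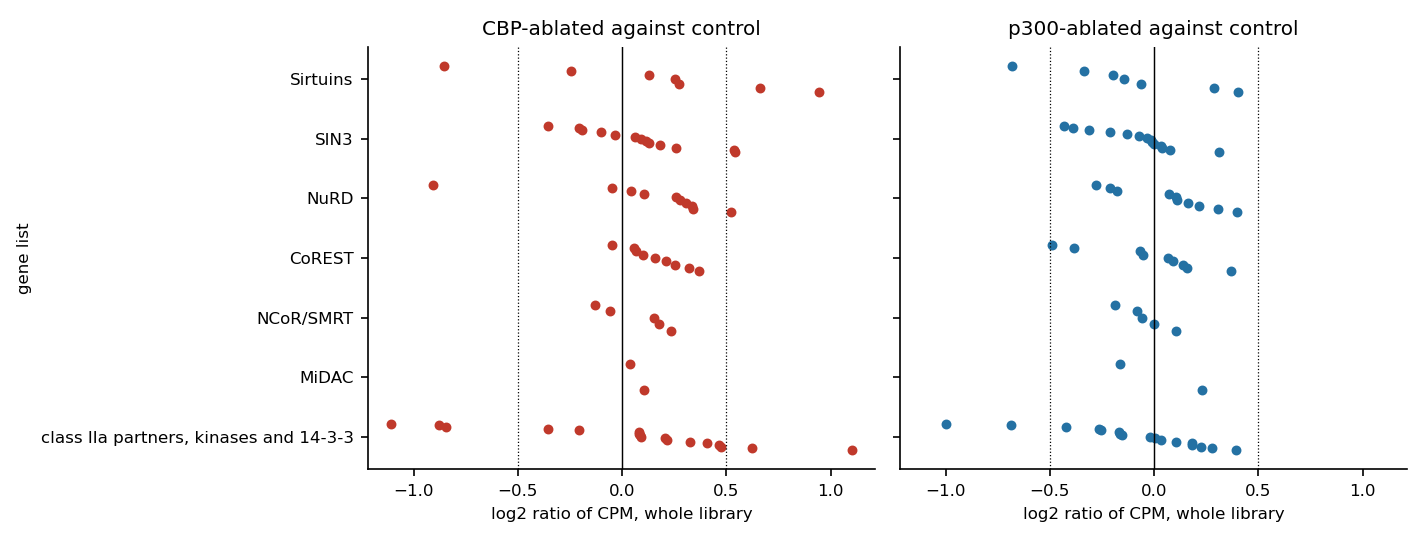
Log2 ratio of each tested partner gene (points) in the CBP-ablated (left) and p300-ablated library (right) against control, by gene list (rows; the height within a row has no meaning). Dotted lines stand at -0.5 and 0.5. In the left panel 7 genes lie over and 5 under these lines, in the right panel 0 and 3.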

How the data were processed

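Single-nucleus RNA was measured in 3 libraries, 1 for each condition. Per the labels and the methods, reads were mapped by the authors with Cell Ranger 3.1 (genome GRCm38), and raw UMI counts per gene and nucleus, over exons and introns, were deposited without normalization. The submitters' processing notes also name FastQC 0.11.9 and Seurat 2.3.4. No deposited column of sample values was left out. The 10 members were found by symbol. The members and all gene lists were chosen with earlier results of these data known, so none of their patterns is independent support for another.

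All nuclei were kept. Clustering used R 4.3.3, Seurat 5.3.0 and Matrix 1.6.5, with 20 principal components, 30 neighbours and resolution 0.6, and the 10 members were left out of the variable genes. A cluster took the name of a class when 60% or more of that class's markers, and no fewer than 3, had a UMI in 10% of the cluster's nuclei at 2 times the level elsewhere, and where several classes met this, it took the one with the largest share of markers found. Doublets were called with Scrublet in scanpy 1.11.5 at 0.8% per 1000 nuclei and kept. UMIs were summed per library and class and given as counts per 1000000 UMIs (CPM), with exact Poisson 95% intervals. Log2 ratios of whole libraries and within classes had conditional exact binomial intervals (Python 3.11.15, numpy 2.4.6, scipy 1.17.1, pandas 2.3.3, matplotlib 3.10.9). At fixed class shares, the CPM of 11 classes and clusters with at least 20 nuclei in every library were averaged with the control library's shares as weights. Intervals of log2 ratios at fixed class shares were normal approximations from the Poisson variances of the classes, which are rough where UMIs are few. Positions and lengths are from GENCODE M21, which held 30410 of the 30559 features. With 1 library per condition no test was run. Intervals cover counting error only, and a count of 0 was read against a floor of 3 UMIs. The statistics were also run on simulated Poisson counts, the model that the intervals assume. That run held no variation between cultures and no misnamed nuclei, so it cannot judge either.

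All 10 members were named. Of the lists of complex genes, the 3 largest and 3 smallest log2 ratios in each ablated library were named, and for each member that differed at least 2 times between classes, the 3 genes of most similar pattern. Leading genes of clusters were named after their values were seen. The alternatives were other doublet, depth, class and filter settings, other clusterings, a fold of 1 in log2 units, and subtraction of 10% free RNA.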

Additional observations from a re-analysis of the deposited data

Results flagged for a closer look

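For 4 members, the ratios of 1 ablated library to control lay on opposite sides of 0 in 2 classes of nuclei. Their intervals of counting error left out 0 in both classes. The same count over all genes was not made, so nothing particular to the members can be read from it. With 1 library per condition the differences between the classes were not tested. Hdac4 in the CBP-ablated library had a log2 ratio to control of 0.67 in neuron-like and of -0.91 in oligodendrocyte-like nuclei. Hdac8 in the same library had 0.27 in oligodendrocyte-like and -0.41 in immature neuron-like nuclei. Hdac9 in the p300-ablated library had 0.75 in neuron-like and -0.40 in microglia-like nuclei. Hdac1 in the p300-ablated library had 0.74 in oligodendrocyte-like and -1.79 (-4.18 to -0.05) in microglia-like nuclei, the last from 3 and 21 UMIs.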

How the results depend on the processing

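No paired analysis was possible because each condition has 1 library. Over 19 alternatives, 2497 of 2585 recomputed values moved by less than the limits set for them. Some alternatives were added after the data were seen. They were the 9 named classes, leaving out the immature neuron-like class alone or with the astrocyte-like class, and its Gpr149-led and Kcnj6-led parts. Many of these values could not move. All members passed both alternative UMI filters, so the 35 values of each were fixed in advance. Leaving out classes did not change values within the classes that were kept. This total, and that of the log2 ratios next, therefore does not measure robustness. Of 1736 recomputed log2 ratios 90 changed sign, 3 of them with intervals that left out 0 before and after: p300-ablated Hdac8 (0.14) and Hdac9 (-0.13) without the astrocyte-like class, and Hdac9 (-0.16) without the immature neuron-like class as well. With a fold of 1 in log2 units, 0 members were past it in the CBP-ablated library, 0 in the p300-ablated library and 0 between them. At fixed class shares, 1 member instead of 2 was past the fold in the CBP-ablated library with the members among the variable genes, 1 over the 9 named classes and 1 without the immature neuron-like class. In the p300-ablated library it was 1 member instead of 0 with classes by marker score and 1 over the 9 named classes. With classes by marker score, the log2 ratio of Hdac6 in p300-ablated microglia-like nuclei turned to 0.78 and that of Hdac11 in CBP-ablated neuron-like nuclei to -0.22, both from few UMIs. Depth limits Hdac6 and Hdac11, also Hdac3 and Hdac5 in the smaller classes, and in microglia-like nuclei all members but Hdac4, Hdac8 and Hdac9.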
